A study of Mus musculus with 6 samples.

Results

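The potassium channel genes of the mouse were taken as every gene whose symbol starts with Kcn, which gave 99 of the 31053 genes in the count files. Among them were 40 alpha subunits of voltage-gated channels, 15 inward rectifiers, 14 two-pore channels, 8 channels opened by calcium or sodium, 16 auxiliary subunits that form no pore, and 6 others, of which 5 are antisense or overlapping transcripts such as Kcnq1ot1. The counts came from nuclei of the colon of wild-type C57BL/6J mice, sorted on DAPI, a DNA stain, and on INTACT, a tag of the nuclear envelope used to collect the enteric nervous system. The Control group held 2 libraries, the Stress group 3 libraries from mice restrained for 7 days, and the Dexamethasone group 1 library from mice given this synthetic glucocorticoid for 7 days. Sex, age, the driver of the INTACT tag and the number of animals behind a library are not given in the labels, so p-values measure the spread between libraries, which may be technical.

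Potassium channels let potassium ions leave or enter the cell and set the resting potential and the shape of electrical signals. In enteric neurons they control firing, in glia they take up potassium released by neurons, in smooth muscle they oppose contraction, and in epithelium they supply the driving force for chloride and fluid secretion. A voltage-gated channel needs 4 alpha subunits around 1 pore, and auxiliary subunits such as the Kcnip, Kcnab, Kcnmb and Kcne families change its gating or its transport to the membrane.

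The pore of these channels is lined by a selectivity filter that most of them share, a short run of residues ending in glycine, tyrosine or phenylalanine, and glycine. Its coding sequence was searched in frame, on the sense strand, as the 4 motifs ACNNNNGGNTATGGN, ACNNNNGGNTACGGN, ACNNNNGGNTTTGGN and ACNNNNGGNTTCGGN, which cannot overlap each other at 1 position, in 1 coding sequence per gene of GENCODE M21 (GRCm38, the same assembly as mm10). It was found in 66 of the 77 pore-forming members (85.7%), in 0 of the 16 auxiliary subunits, and in 228 of 21571 coding sequences of all genes (1.06%). All 14 two-pore genes held it, 11 of them more than once, as these subunits carry 2 pore loops. The 11 pore-forming members without these letters were Kcnh1, Kcnh2, Kcnh3, Kcnh4, Kcnh6, Kcnh7, Kcnh8, Kcnn1, Kcnn2, Kcnn3 and Kcnj14.

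The filter and its flanks are shown for 9 genes that the levels below turn on, first those highest in neuron-like nuclei, then glia-like and smooth muscle-like nuclei; the capitals mark the 15 bases of the motif within 30 bases, read 5′ to 3′ on the coding strand.
Kcnb2: atgaccACTGTGGGCTACGGTgacatttac
Kcnc2: atgactACCTTAGGTTACGGGgatatgtac
Kcnq3: ctggccACCATTGGTTATGGAgacaagaca
Kcna1: atgaccACTGTGGGATACGGTgacatgtac
Kcna2: atgacaACTGTAGGCTATGGAgacatggtt
Kcna6: atgaccACGGTAGGTTATGGGgacatgtac
Kcnj10: cagaccACCATCGGCTATGGCttccgctac
Kcnd3: atgactACACTGGGATATGGAgacatggtg
Kcnma1: atgtctACAGTGGGTTATGGGgacgtttat

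Each window lies in coding exons. In GRCm38 they are at chr1:15710040-15710069 (plus strand) for Kcnb2, chr10:112456223-112456252 (plus strand) for Kcnc2, chr15:66023722-66023751 (minus strand) for Kcnq3, chr6:126642219-126642248 (minus strand) for Kcna1, chr3:107105218-107105247 (plus strand) for Kcna2, chr6:126738638-126738667 (minus strand) for Kcna6, chr1:172369296-172369325 (plus strand) for Kcnj10 and chr14:23528404-23528433 (minus strand) for Kcnma1. The Kcnd3 window crosses a splice junction, so its first and last base are far apart in the genome, at chr3:105459908-105658626 (plus strand). The 9 capital stretches are all different, although every one of them codes for the tyrosine form of the filter.

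Of 11040 barcodes holding 58954323 UMIs (unique transcript counts), 3430 nuclei were kept after filters on genes per nucleus, mitochondrial share and doublets. The median per library was between 1628.5 and 3970 UMIs per nucleus. Clusters were named from marker genes, with the Kcn genes left out of the clustering, as glia-like (880 nuclei), epithelium-like (547), neuron-like (528), smooth muscle-like (313), fibroblast-like (205), lymphatic endothelium-like (157), cycling (119) and vascular endothelium-like (38), and 643 nuclei stayed unnamed. The labels call all samples cells of the enteric nervous system, but neuron-like and glia-like nuclei together made up fewer than the other nuclei. Vascular nuclei numbered 1 in Control 1, epithelium-like nuclei 9 in Dexamethasone, and 17 barcodes occurred in 2 libraries, 3 of them among the kept nuclei.

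A level is given as CPM, the UMIs of a gene per 1000000 UMIs of the same class or cluster in a library, and means ± SD are over the 6 libraries of all groups unless stated (n = 6). Differences between classes are descriptions without a test, since the classes were formed from the same nuclei. A gene counted as highest in a class when it had at least 30 UMIs there and lay above every other named class in all libraries but at most 1. The classes held 4510262 UMIs (neuron-like), 3247338 (glia-like), 1536693 (epithelium-like), 1035083 (smooth muscle-like), 376632 (cycling) and 327001 (lymphatic endothelium-like). The same 30 UMIs are therefore a higher CPM in the smaller classes. The rule was applied to Kcn genes only, so no share over all genes is given. By this rule 24 genes were highest in neuron-like nuclei, 6 in glia-like, 5 in smooth muscle-like, 2 in lymphatic endothelium-like, 2 in cycling and 0 in epithelium-like nuclei. Another 24 genes had at least 30 UMIs in the named classes and were highest in none. The remaining 36 had fewer than 30 UMIs there, among them the inward rectifier Kcnj8, and 6 had no UMI in any kept nucleus (Kcnk15, Kcna10, Kcnmb4os1, Kcnk16, Kcns2 and Kcnj4). The summed level of all 99 genes was 31367 ± 3297 CPM in neuron-like, 26585 ± 5346 in smooth muscle-like, 5493 ± 630.0 in glia-like and 2670 ± 1504 in epithelium-like nuclei.

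**Figure D1:**
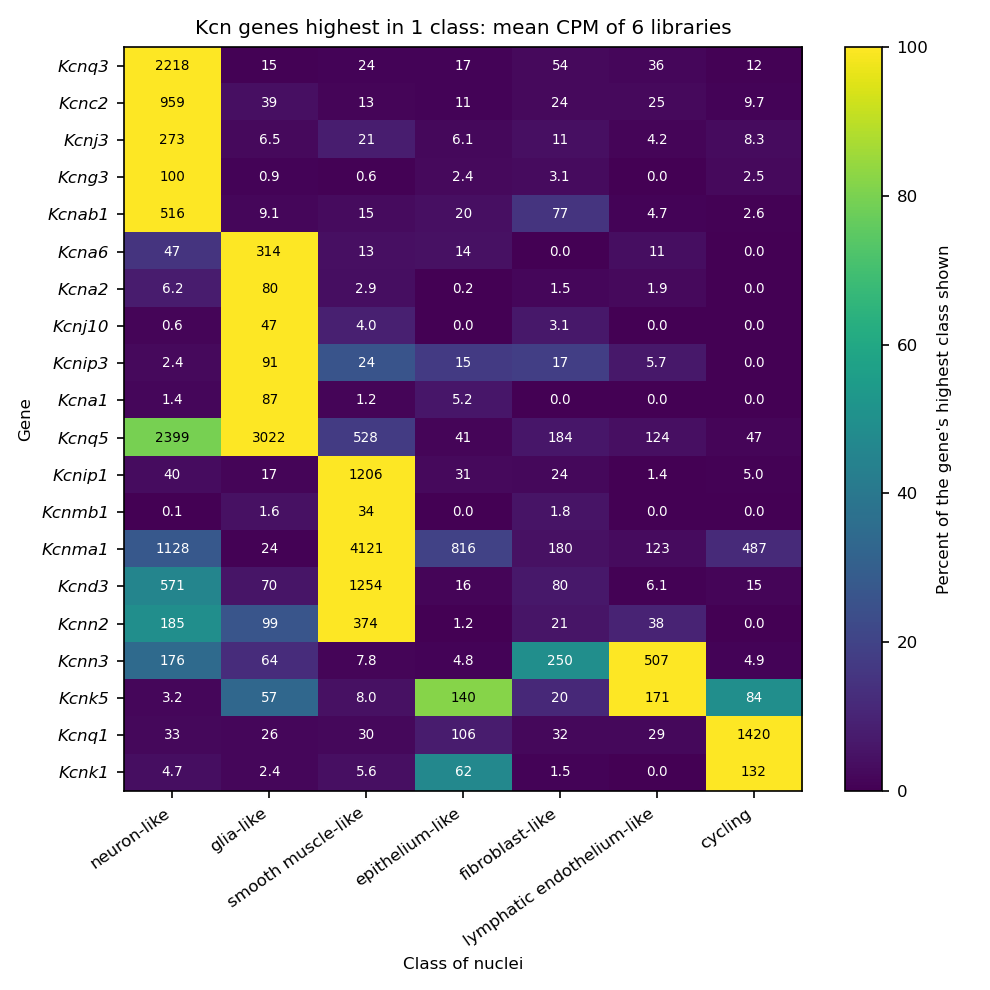
Mean CPM over 6 libraries (numbers) of Kcn genes that lead each class, for 7 classes of nuclei; colour gives the level as a percent of the gene's highest class shown. Each block of bright cells is 1 class, with Kcnq5 shared by glia-like and neuron-like nuclei and Kcnk5 by lymphatic endothelium-like and epithelium-like nuclei.

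Of the 24 genes highest in neuron-like nuclei 12 were voltage-gated alpha subunits, a family that makes up 40 of the 99 members. In summed level the 16 auxiliary subunits stood at 14563 CPM and the voltage-gated alpha subunits at 12438 CPM in these nuclei. Kcnq3, a subunit of the M-channel that muscarinic receptors close, had 2218 ± 519 CPM in neuron-like nuclei against 53.7 ± 88.4 in fibroblast-like nuclei, the next class, and 14.8 in glia-like nuclei. Its levels by library were 1936 and 1688 CPM (Control), 3042, 1958 and 2020.1 (Stress) and 2666 (Dexamethasone). The lowest of these values lay above all values of the other classes. Kcnc2, a fast delayed rectifier that allows repeated firing, had 961 and 905 CPM (Control), 1154, 954 and 724 (Stress) and 1055 (Dexamethasone), while its glia-like mean was 39.3 CPM.

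Kcnb2, a slow delayed rectifier, averaged 3239.5 ± 1004 CPM in neuron-like nuclei and 553 in epithelium-like nuclei, the next class. For Kcnd2, an A-type channel that delays the next spike, the mean was 1993 ± 515 CPM against 484 in glia-like nuclei. The silent subunit Kcng3, which modifies Kcnb channels, stood at 99.8 ± 27.7 CPM against at most 3.07 in any other class. Kcnh7, of the ether-a-go-go-related family, stood at 207 ± 93.3 CPM, Kcnc1 at 56.1 ± 9.53 and the beta subunit Kcnab1, which binds alpha subunits in the cytoplasm, at 516 ± 68.1.

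The G protein-gated inward rectifiers Kcnj3 and Kcnj6, which open on signals from inhibitory receptors, were also neuronal. Kcnj3 had 304 and 309 CPM (Control), 311, 275 and 240.2 (Stress) and 201 (Dexamethasone), against a mean of 21.4 CPM in smooth muscle-like nuclei. Kcnj6 averaged 74.99 ± 16.5 CPM, against 8.005 in lymphatic endothelium-like nuclei. The sodium-activated channels Kcnt1 and Kcnt2 stood at 31.3 ± 8.67 and 1576 ± 288 CPM, and Kcnt2 was next highest in fibroblast-like nuclei (655). In 11 of the 24 genes, no library of any other named class reached the lowest neuron-like value. In the other 13 the libraries overlapped, as for Kcnh7, Kcnc1 and Kcnt2. The same share over all genes was not computed.

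Some channel genes known from neurons were not highest there. Kcnip4, which binds A-type channels and raises their surface expression, had 17217 ± 4069.9 CPM in smooth muscle-like and 13934 ± 2844 in neuron-like nuclei, against 150.3 in glia-like nuclei, so the first 2 classes did not differ beyond their spread. The background channel Kcnk2 reached 107 CPM in fibroblast-like and 92.9 in neuron-like nuclei, and Kcnk3 23.7 in smooth muscle-like and 15.2 in neuron-like nuclei. Kcnh2 had 25.98 and 22.7 CPM in the same order of classes. Kcnh1 was at 107 ± 48.8 CPM in neuron-like nuclei and at most 6.05 in glia-like, smooth muscle-like or epithelium-like nuclei. In the 38 vascular endothelium-like nuclei it was at 118 ± 187 CPM, which did not differ from the neuron-like level beyond the spread. That class held 72399 UMIs in all and 674 in Control 1, so 1 UMI is a high CPM there.

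Within the neurons, 5 clusters differed in their channels. Cluster 3 (67 nuclei) was led by the peptide genes Penk and Tac1, cluster 7 (106) by Vip and Gal, cluster 11 (130) by Nos1, the neuronal nitric oxide synthase, cluster 14 (79) by Nmu, and cluster 16 (146) by Sst and Grik1. Of 37 Kcn genes with at least 30 UMIs in their highest cluster, 16 were highest in the same cluster in at least 5 libraries. The highest cluster was picked from these same libraries, so this count is a description. It ranged from 11 to 29 over the alternative settings, and the same share over all genes was not computed. The intervals below are 95% exact Poisson intervals of the counts pooled over libraries, and cover counting error only.

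Kcnb2 separated the Nmu cluster from the rest. It reached 13725 CPM (interval 13433 to 14021) in cluster 14, against 3327 in cluster 7 and 632 in cluster 16, the lowest. By library, cluster 14 held 12407 and 16384 CPM (Control), 12757, 15383 and 14397 (Stress) and 6871 (Dexamethasone). All 6 values exceeded those of the other 4 clusters in the same library, with Dexamethasone the lowest. The inward rectifier Kcnj12 was also highest there (103 CPM, next 64.9). Over all nuclei of cluster 14, the median ratio of a nucleus's UMIs to the median of its library was 0.353. Most of these nuclei came from Dexamethasone, so this ratio does not describe the other libraries. The library medians over all kept nuclei were 1802 and 2109 UMIs (Control), 1628.5, 3064 and 3497 (Stress) and 3970 (Dexamethasone). Of the 79 nuclei of cluster 14, 41 came from Dexamethasone (84997 UMIs), against 8 and 6 from Control (53839 and 52245 UMIs). Stress gave 2, 12 and 10 nuclei (7525, 247345 and 165799 UMIs). Dexamethasone had 70 neuron-like nuclei in all. The part of depth and of these numbers in the Kcnb2 and Kcnj12 levels was not tested.

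The Vip cluster 7 had the highest Kcnd2, 4109 CPM (interval 3994 to 4227) against 2175 in cluster 16 and 91.5 in cluster 14. Library values for cluster 7 were 4683 and 7812 CPM (Control), 2642, 4989 and 3630.4 (Stress) and 2371 (Dexamethasone). Each was the highest of the 5 clusters in its library, from 7 nuclei each in Stress 1 and Dexamethasone. Kcnh7 was at 409.9 CPM in cluster 7 and 178 in cluster 11. The Nos1 cluster 11 led in Kcnab1 at 1246 CPM (interval 1178 to 1317), with 1228 and 1252 CPM (Control), 1138, 1237 and 1268 (Stress) and 1282 (Dexamethasone), a narrow range over libraries. Cluster 7 followed at 776 CPM and cluster 3 was lowest at 55.3. Pooled over libraries, cluster 11 was also highest in Kcnj3 (595 CPM, next 259 in cluster 7), though in only 4 of the 6 libraries.

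In the Sst cluster 16 the small-conductance calcium-activated channel Kcnn2, which acts after each spike to hold down firing, was highest at 482 CPM (interval 442 to 525), against 174 in cluster 3. Its values were 736 and 439.8 CPM (Control), 179, 411 and 488 (Stress) and 398 (Dexamethasone). In Stress 1 cluster 3 was slightly higher, at 182 CPM. The Penk and Tac1 cluster 3 led in Kcnc2 (1705 CPM, next 997 in cluster 16), in all 6 libraries. It also led in Kcnip1 (167, next 50.5) and in Kcnh5 (65.02, next 7.21), the latter from 40 UMIs. Cluster 3 had 3 nuclei in Control 2 and 4 in Stress 1. Kcnn3 was similar in clusters 3 and 16, at 301 and 269 CPM.

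**Figure D2:**
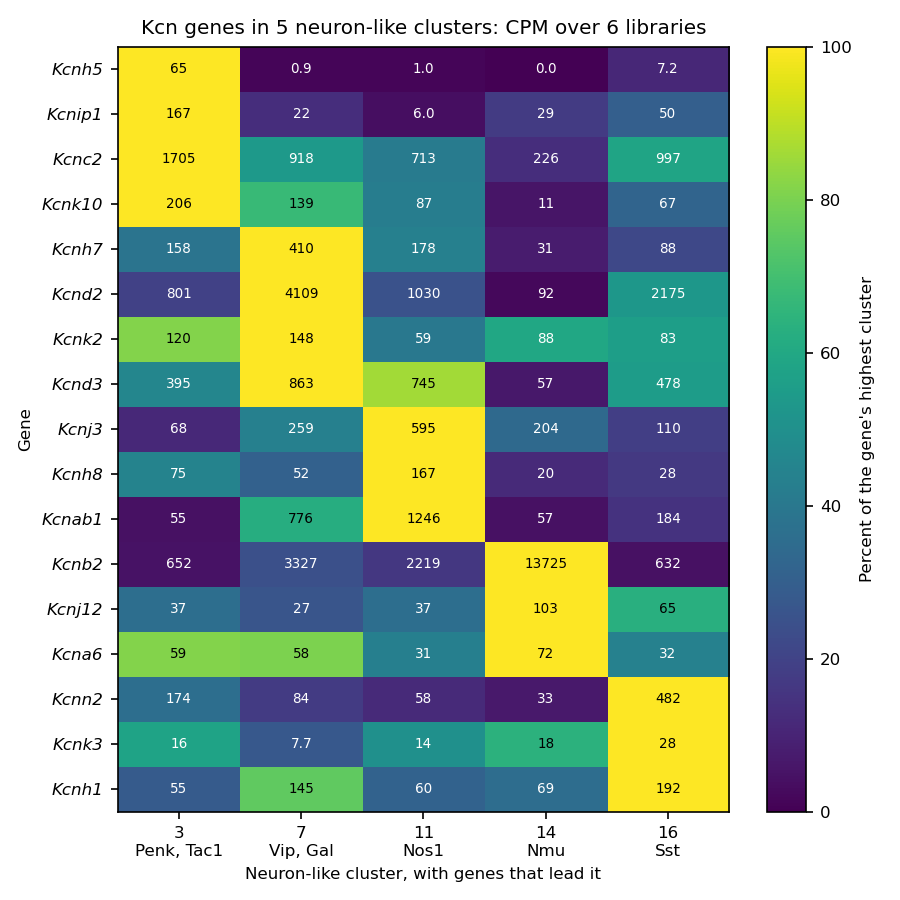
CPM pooled over 6 libraries (numbers) of up to 4 Kcn genes that most separate each of 5 neuron-like clusters; colour is the percent of the gene's highest cluster. Kcnb2 in cluster 14, Kcnd2 in cluster 7, Kcnab1 in cluster 11 and Kcnn2 in cluster 16 are each higher than in the other 4 clusters.

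In glia-like nuclei the highest genes were Shaker-type subunits, an inward rectifier and Kcnq5. Kcna6, a Shaker-type delayed rectifier, had 314 and 171 CPM (Control), 271, 421 and 419 (Stress) and 289.8 (Dexamethasone), with a mean of 46.97 CPM in neuron-like nuclei, the next class. Kcna2 averaged 79.8 ± 21.03 CPM against 6.17 in neuron-like nuclei. Kcnj10, the inward rectifier through which glia buffer potassium, averaged 46.97 ± 22.7 CPM against 4.04 in smooth muscle-like nuclei, with 29.9 and 86.7 CPM (Control), 61.2, 35.6 and 38.9 (Stress) and 29.4 (Dexamethasone). For these 3 genes no library of another class reached the glia-like range. Kcnip3, a calcium sensor that binds A-type channels, stood at 91.3 ± 25.6 CPM against 23.8. Kcnq5 was high in glia-like (3022 ± 586) and neuron-like nuclei (2399 ± 403), whose libraries overlapped. The accessory subunit Kcnmb4 was at 19.9 CPM in glia-like and 9.96 in neuron-like nuclei.

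Kcna1 and Kcna2 were unevenly spread among the glia. Cluster 9 (146 nuclei) had 336 CPM (interval 281 to 399) of Kcna1, against 58.2 in cluster 10 (517 nuclei) and 44.3 in cluster 12 (217 nuclei). Kcna2 followed the same order with 277, 61.99 and 33.2 CPM. Both were among the 10 genes that lead cluster 9, along with Col28a1 and Scn7a. Kcnn2 was also highest in cluster 9, at 259 CPM (interval 210.4 to 314) against 78.9 and 79.9, whereas Kcna6 was at 352, 307 and 351 CPM in clusters 9, 10 and 12.

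Smooth muscle-like nuclei held the large-conductance calcium-activated channel: Kcnma1, its pore, and Kcnmb1, the beta subunit that raises its calcium sensitivity in smooth muscle. Kcnma1 had 4169 and 1699 CPM (Control), 5618, 4805 and 4686 (Stress) and 3748 (Dexamethasone), and averaged 1128 ± 113 CPM in neuron-like nuclei, the next class. Control 2, the library with 23 smooth muscle-like nuclei, was the lowest, but all 6 values exceeded every neuron-like value. Kcnmb1 averaged 34.1 ± 23.9 CPM from 35 UMIs, with none in Control 2. Kcnip1, a binding partner of A-type channels, stood at 1206 ± 366 CPM against 39.7 in neuron-like nuclei. Kcnd3, an A-type channel, was at 1254 ± 262 against 571 there, and Kcnn2 at 374 ± 141 against 185. Kcnmb1 (chr11:33963013-33973641, plus strand) lies inside Kcnip1 (chr11:33629339-33993152, minus strand). Whether counting used strand is not stated, so reads of the 2 cannot be told apart, here or in the Kcnip1 group values below.

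The smooth muscle-like clusters did not share these channels evenly. Cluster 20 (83 nuclei, led by Ak5 and Dpp10, which encodes another partner of A-type channels) had 3234 CPM (interval 3019 to 3459.6) of Kcnd3, against 602 CPM (interval 548 to 659) in cluster 6 (230 nuclei, led by Myh11). In cluster 20 the values by library were 2667 and 1367 CPM (Control), 2965, 4673 and 3611 (Stress) and 2145 (Dexamethasone), each above cluster 6 in the same library. Kcnn2 went the other way, at 104 CPM in cluster 20 and 455 in cluster 6. Kcnip4 was nearly the same in both, at 17231 and 17233 CPM.

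No Kcn gene counted as highest in epithelium-like nuclei. The 14 epithelium markers summed to 8632 CPM or more in every library of these nuclei, but also to between 3614 and 5953 CPM in cycling and between 5707 and 8586 CPM in unnamed nuclei, against at most 2293 CPM in every other class. The two-pore channel Kcnk5 was at 139.6 ± 44.5 CPM there, against 171 in lymphatic endothelium-like and 3.16 in neuron-like nuclei. Kcnk1, another two-pore channel, was highest in cycling nuclei (132 ± 66.4) and next in epithelium-like nuclei (61.7). Other channels stood out in single clusters. Kcnma1 was at 3196 CPM (interval 2996 to 3407) in cluster 17 (87 goblet-like nuclei) and at 3322 CPM (interval 3179.5 to 3469.8) in the unnamed cluster 15 (led by Spdef, a goblet cell regulator, among others), but at 75.4 in cluster 0 and 12.7 in cluster 1. In cluster 5 (23 nuclei, led by Tph1 and Chgb, genes of serotonin-making enteroendocrine cells), Kcnb2 reached 4359.5 CPM (interval 3885 to 4876), Kcnmb2 1150.2 and Kcnh8 781 CPM. Kcnmb2 is itself among the genes that lead cluster 5. This cluster scored 3.65 on the tuft cell marker list, its best match, and 3.45 on the enteroendocrine list. Its cell type is therefore not settled here.

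Kcnq1 and its partner Kcne3, which together form the basolateral potassium channel of secreting crypt cells, were highest in an unnamed and a cycling cluster, both from classes that carry the epithelium markers given above. Kcnq1 was at 1914 CPM (interval 1797 to 2036) in the unnamed cluster 4 (235 nuclei, led by Cftr, the chloride channel of secretion, and by Kcnq1 itself), and cycling nuclei had 1046 and 967 CPM (Control), 1134, 1939.5 and 2253 (Stress) and 1182 (Dexamethasone). The epithelium-like clusters 0, 1, 8 and 17 held between 33.9 and 68.3 CPM, and the epithelium-like cluster 5 held 539.6 CPM (interval 382 to 741). Kcne3 went with it, at 97.5 CPM (interval 72.6 to 128) in cluster 4 and 114 CPM (interval 82.6 to 154) in the cycling cluster 18, with 1 UMI in cluster 1, 3 in cluster 17 and 0 in clusters 0, 5 and 8. Kcnn4, the intermediate-conductance calcium-activated channel of secretory epithelium, was at 103 CPM (interval 77.6 to 135) in cluster 4 and 50.4 in cluster 18. Kcnq1ot1 is transcribed antisense to Kcnq1, and the files do not state whether counting used strand. How reads in the overlap of the 2 genes were assigned is therefore not known. Kcnq1ot1 was counted as a gene of its own, with its highest means in smooth muscle-like (710 CPM) and fibroblast-like (662 CPM) nuclei.

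**Figure D3:**
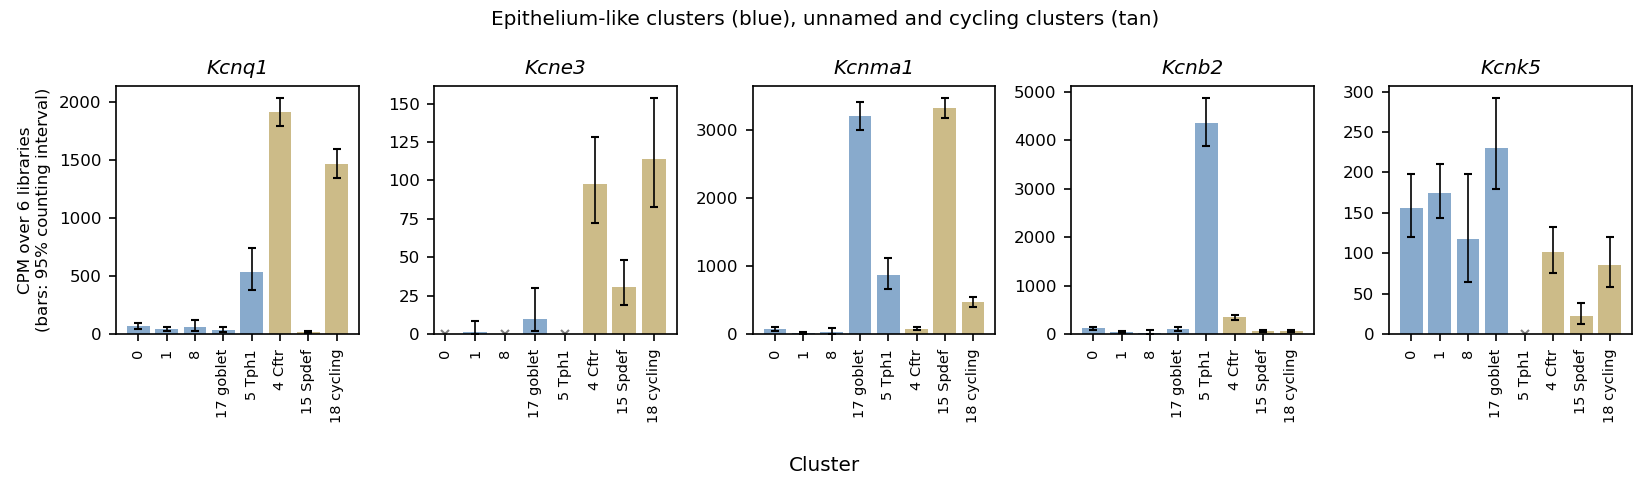
CPM pooled over 6 libraries of 5 Kcn genes in epithelium-like clusters (blue) and in unnamed clusters 4 and 15 and the cycling cluster 18 (tan); error bars are 95% counting intervals and crosses mark clusters with no UMI. Kcnq1 and Kcne3 are high in clusters 4 and 18, Kcnma1 in clusters 17 and 15, and Kcnb2 in cluster 5.

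Which of these genes change with treatment was tested on UMIs summed per class and library, by edgeR's quasi-likelihood test over all genes with Benjamini-Hochberg adjustment and a threshold of 0.05. Having no replicate, Dexamethasone took its spread from the other groups, and both treatments were set against the same Control libraries. In glia-like nuclei of stressed mice, 1 of 22 tested Kcn genes passed, and it was lower; over all genes 133 of 6544 passed (2.03%), of which those that were lower made up 0.535%. The median log2 fold change of the Kcn genes was 0.03, against -0.01 over all genes tested. At an unadjusted p under 0.05 there were 4 Kcn genes (against 13.1% of all genes). DESeq2 called 0 of the 22 and 92 of all genes.

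The gene was Kcnd3 (chr3:105452330-105674002 in GRCm38), which encodes an A-type channel. Glia-like levels were 132 and 93.5 CPM (Control), 51.6, 50.2 and 45.8 (Stress) and 45.6 (Dexamethasone). Both Control values lay above all 3 Stress values and the Dexamethasone value. The log2 fold change was -1.26 ± 0.27 (SE; adjusted p = 0.0234 with edgeR). The call was lost under DESeq2 (adjusted p = 0.0993), with a stricter filter of nuclei (0.397) or no mitochondrial filter (0.133), and without Control 1 (0.170), Stress 1 (0.0574), Stress 2 (0.102) or Stress 3 (0.145). It passed without Control 2 (0.0211), and the log2 fold changes in the 5 fits without a library lay between -1.49 and -0.97. In Dexamethasone the log2 fold change was -1.22 ± 0.37 (adjusted p = 0.064), from the same Control libraries, and it passed without Control 2 (adjusted p = 0.0394).

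Within cluster 10 alone, the largest glia cluster, Kcnd3 had 132 and 109 CPM (Control), 40.98, 59.9 and 39.2 (Stress) and 23.8 (Dexamethasone). Both Control values were again the highest, with a log2 fold change in Stress of -1.44 that did not pass (adjusted p = 0.0611, edgeR). Smooth muscle-like and neuron-like nuclei hold more Kcnd3 than glia-like nuclei, and the markers of both were summed in glia-like nuclei. The 9 smooth muscle markers summed to 149.5 and 184.8 CPM in Control and to between 190.2 and 359.6 in Stress, and the neuron markers (11 of 12 detected, Tubb3 at 0) to 352.4 and 360.5 and to between 395.6 and 470.5. For both lists all 3 Stress sums lay above both Control sums. Cluster 12 held 8.60% and 4.41% of the glia-like UMIs (Control), 17.9%, 34.3% and 57.3% (Stress) and 71.3% (Dexamethasone). The Kcnd3 of cluster 12 pooled over libraries was 62.5 CPM against 78.9 in cluster 10. These pooled values weigh the groups differently, so they do not compare the 2 clusters within a library. Of 1263636 UMIs in cluster 12, 500228 came from Stress 3 and 484462 from Dexamethasone. Of 1596949 UMIs in cluster 10, the Control libraries gave 371641 and 365445. The part of both marker lists and of cluster 12 in the Kcnd3 values was not tested. In neuron-like nuclei Kcnd3 had 671 and 573 CPM (Control), 585, 406 and 695 (Stress) and 498 (Dexamethasone), with overlapping groups (log2 fold change -0.21 ± 0.23), and in smooth muscle-like nuclei 1143 and 1132 CPM (Control), 1275, 1470.4 and 1619 (Stress) and 886 (Dexamethasone) (0.26 ± 0.23). The difference of the stress effect between neuron-like and glia-like nuclei was 1.01 ± 0.37 for Kcnd3, with an adjusted p of 0.399 (edgeR), so it did not pass. Kcnd3os, an antisense transcript at the start of Kcnd3, had 21 UMIs in the named classes.

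**Figure D4:**
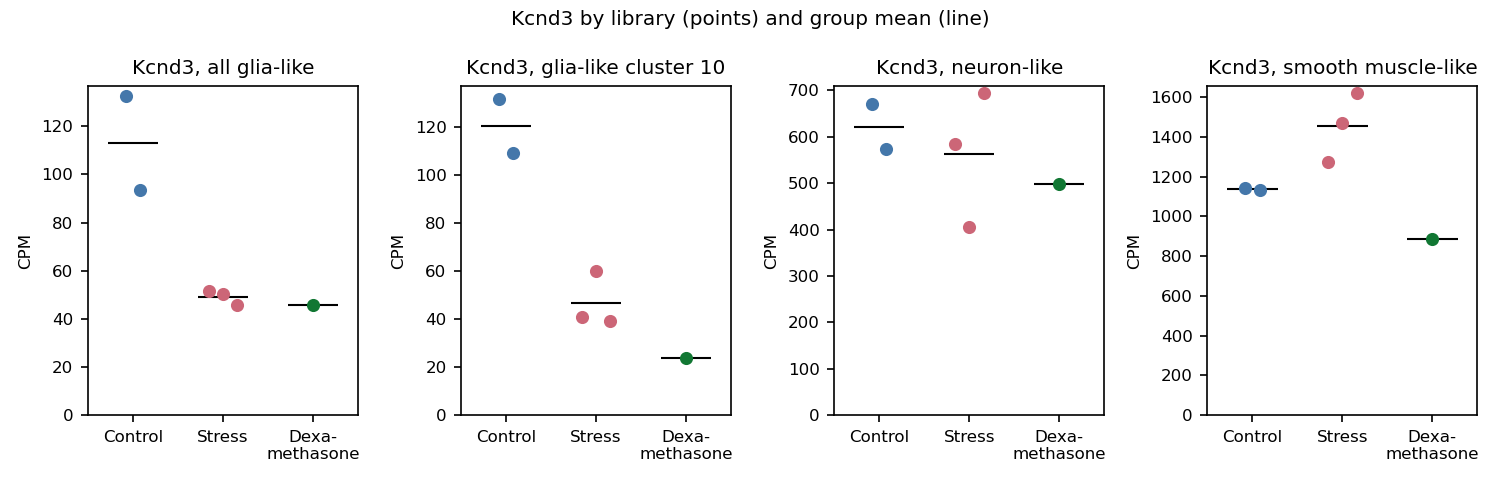
Kcnd3 in CPM per library (points) with the group mean (line), in all glia-like nuclei, in glia-like cluster 10, in neuron-like and in smooth muscle-like nuclei. In both glia panels the 2 Control libraries lie above the 3 Stress libraries and the 1 Dexamethasone library, while neuron-like values overlap.

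Of the other glia genes, Kcna1 had 103 and 135 CPM (Control), 58.01, 83.7 and 81.3 (Stress) and 63.3 (Dexamethasone), a log2 fold change of -0.68 ± 0.25 in Stress (edgeR adjusted p = 0.236) and -0.81 ± 0.35 in Dexamethasone (0.211). Kcna6 and Kcnk5 were at 0.58 and 0.88 in Stress, with adjusted p of 0.371 and 0.281. Kcnj10, Kcna2 and Kcnq5 had log2 fold changes of -0.46 ± 0.41, -0.24 ± 0.27 and -0.21 ± 0.19. None of these passed. The 13 glia markers summed to 4699 and 3740 CPM (Control), 5376, 6319 and 6131 (Stress) and 5500 (Dexamethasone) in the same nuclei, and their part in the glia values was not tested. In Dexamethasone glia-like nuclei 0 of 26 Kcn genes passed with edgeR and 0 with DESeq2, while 467 of 7698 genes passed over all (6.07%) with edgeR and 206 with DESeq2; at an unadjusted p under 0.05 there were 5 (against 18.6% of all genes), namely Kcnd3, Kcnd2 (0.74), Kcna1, Kcnn3 (-0.998) and Kcnh8 (-1.02). The smooth muscle markers summed to 732.7 CPM in the Dexamethasone glia-like nuclei; their part in these values, and that of cluster 12, was not tested.

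In neuron-like nuclei no Kcn gene passed in either comparison. With edgeR 0 of 40 passed in Stress, as did 0 of 8067 of all genes (0.0%), and DESeq2 called 0 Kcn genes and 19 of all genes. At an unadjusted p under 0.05 there were 5 Kcn genes, 12.5% of those tested against 10.0% of all genes. Kcnn2 had 281 and 230.4 CPM (Control), 141, 146 and 185 (Stress) and 125 (Dexamethasone), with both Control values above all others, a log2 fold change of -0.75 ± 0.18 and an adjusted p of 0.251 (edgeR). Cluster 16, where Kcnn2 is highest, held 27.1% and 37.0% of the neuron-like UMIs (Control), 20.3%, 22.5% and 27.7% (Stress) and 13.7% (Dexamethasone). Kcnip1 had 20.96 and 2.81 CPM (Control), 44.4, 35.1 and 74.01 (Stress) and 61.00 (Dexamethasone), with both Control values below all others (1.82 ± 0.54, adjusted p = 0.33). The Kcnip1 value was 4.09 without Control 1 and 1.25 without Control 2. Without the filter on low counts, Kcnip1 passed (adjusted p = 0.00201). Kcnip1 is highest in smooth muscle-like nuclei, and the 9 smooth muscle markers summed in neuron-like nuclei to 267.9 and 230.4 CPM (Control), 177.5, 328.6 and 478.9 (Stress) and 1001 (Dexamethasone); among neurons it is highest in cluster 3, which held 13.4% and 4.39% of the UMIs (Control), 28.8%, 14% and 10.7% (Stress) and 19.3% (Dexamethasone). The part of either in the Kcnip1 values was not tested. The values for Kcnd2, Kcng3 and Kcns3 were -0.53, -0.66 and -1.39, with adjusted p of 0.438, 0.42 and 0.421. Of the genes that lead the class, Kcnq3 and Kcnc2 had log2 fold changes of 0.32 ± 0.25 and -0.04 ± 0.23 in Stress.

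In the Dexamethasone library 0 of 44 Kcn genes passed in neuron-like nuclei, nor did any of 9284 genes (0.0%); 8 had an unadjusted p under 0.05 with edgeR (against 10.3% of all genes), 3 above and 5 below Control, and DESeq2 called 0 of them and 17 of all genes. Those below were Kcnn2 (-1.13 ± 0.27), Kcnd2 (-0.98 ± 0.27), Kcnt2, Kcnj3 and Kcnb2, and those above Kcnip1 (2.00 ± 0.64; 4.28 without Control 1 and 1.45 without Control 2), Kcnj5 and Kcna6. Without the filter on low counts Kcnip1, Kcnn2 and Kcnd2 passed (adjusted p = 0.00783, 0.0184 and 0.0368). Of the neuron-like UMIs of this library, cluster 16, highest in Kcnn2, held the smaller share given above, cluster 7, highest in Kcnd2, held 35.8% (28.6% and 20.1% in Control), and cluster 14, lowest in both, held 14% (8.06% and 14.7% in Control). The part of these shares in the values was not tested.

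Smooth muscle-like nuclei gave 0 of 12 Kcn genes in Stress (10 of all 2836 genes, 0.353%) and 0 of 12 in Dexamethasone (35 of 3878, 0.903%) with edgeR, and 0 with DESeq2 in both, which called 15 and 11 of all genes. At an unadjusted p under 0.05 there were 4 in Stress and 2 in Dexamethasone (against 11.2% and 11.4% of all genes). In Stress 10 of the 12 Kcn genes lay above Control, with a median log2 fold change of 0.36 against 0.00 over all genes tested. Kcnq5 had 365 and 167 CPM (Control), 553, 552 and 656 (Stress) and 873 (Dexamethasone), with both Control values lowest, and log2 fold changes of 0.99 ± 0.32 in Stress (adjusted p = 0.261) and 1.55 ± 0.39 in Dexamethasone (0.0715). Kcnq5 passed in Dexamethasone without Control 1, Stress 2 or Stress 3 (adjusted p = 0.0266, 0.0261 and 0.0266, edgeR). Its Dexamethasone value was 2.29 without Control 1 and 1.16 without Control 2, and its Stress value 1.74 and 0.62. Kcnq5 is highest in glia-like nuclei, and in smooth muscle-like nuclei the glia markers (10 of 13 detected) summed to 67.25 and 16.65 CPM (Control), 161.1, 75.94 and 55.82 (Stress) and 613.4 (Dexamethasone). Neuron markers (11 of 12 detected) were at 134.5 and 149.9 CPM in Control, between 77.06 and 214.0 in Stress and at 370.7 in Dexamethasone, and the part of both lists in the Kcnq5 values was not tested. For Kcnma1 the Stress value was 0.69 ± 0.30 (adjusted p = 0.408), and 1.49 without Control 1 (0.0211), which leaves Control 2, the lowest library, as the only control; without Control 2 it was 0.20. Kcnip1 and Kcnq1ot1 were at 0.74 and 0.96, and Kcnd3 at 0.26. Cluster 20, which has more Kcnd3 and less Kcnn2 than cluster 6, held 17.3% and 11% of the smooth muscle-like UMIs (Control), 33.1%, 24.1% and 36.3% (Stress) and 16.8% (Dexamethasone); its part in these values was not tested.

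Among epithelium-like nuclei 0 of 10 Kcn genes passed in Stress and 0 of 13 in Dexamethasone with edgeR, with 0 of 3523 and 0 of 4495 genes in all (0.0% each); 3 and 1 Kcn genes had an unadjusted p under 0.05 (against 8.66% and 8.81% of all genes), and DESeq2 called 1 (Kcnmb2, Stress, adjusted p = 0.00034) and 0, with 20 and 1 of all genes. Kcnmb2 had 90.8 and 464 CPM (Control), 5.34, 4.08 and 22.4 (Stress) and 217 (Dexamethasone) (log2 fold change -4.89 ± 0.84, edgeR adjusted p = 0.0914), and Kcnb2 324 and 2059 CPM (Control), 10.7, 127 and 149.6 (Stress) and 649.9 (Dexamethasone) (-3.46 ± 0.80, 0.208). Without Control 1 Kcnmb2 passed (adjusted p = 0.0139). Without Control 1 and without Control 2 the Kcnmb2 values were -5.64 and -3.52 and the Kcnb2 values -4.14 and -1.73. Both genes were highest in cluster 5 among the epithelium-like clusters, where Control libraries had 6 and 8 nuclei, Stress libraries 2, 3 and 3, and Dexamethasone 1, of 160, 38, 97, 209, 34 and 9 epithelium-like nuclei. By UMIs it held 4.71% and 31.5% (Control), 0.724%, 1.24% and 9.86% (Stress) and 12.8% (Dexamethasone) of the class. Without clusters 1 and 5 together, the Kcnb2 value in Stress turned to 0.51 (edgeR adjusted p = 0.970). Cluster 1 held 3.47% and 0% (Control), 37.2%, 68.9% and 18.3% (Stress) and 27.9% (Dexamethasone) of the UMIs of the class. The part of each of these 2 clusters in the change of sign was not tested.

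**Figure D5:**
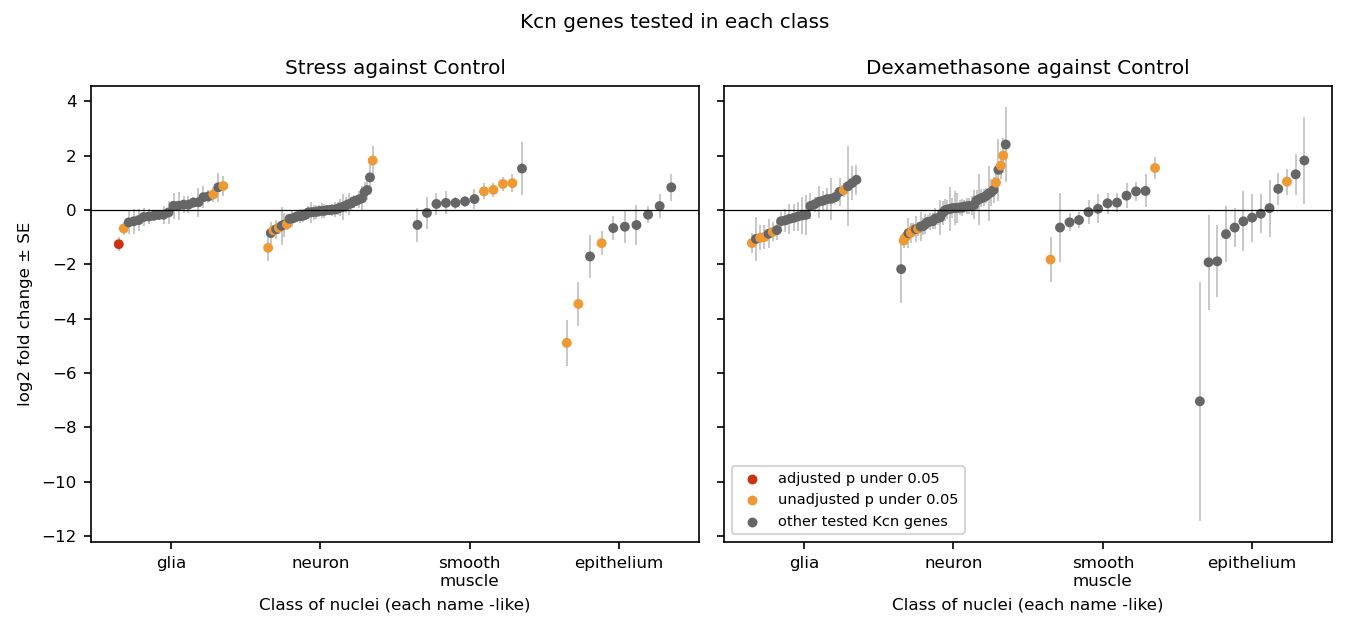
Log2 fold change ± SE (edgeR) of every tested Kcn gene in 4 classes, for Stress (left) and Dexamethasone (right) against Control; red passed the adjusted threshold, orange had an unadjusted p under 0.05. The single red point is Kcnd3 in glia-like nuclei of Stress, and the right panel rests on 1 Dexamethasone library.

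The model of the difference between neuron-like and glia-like stress effects called 0 of 40 Kcn genes with edgeR (16 of all 8197 genes, 0.195%) and 0 with DESeq2 (1 of all genes). At an unadjusted p under 0.05 there were 6 (against 8.15% of all genes), and Kcnip1 had the smallest p, with a difference of 2.37 ± 0.68 (adjusted p = 0.179), which was 4.32 without Control 1 and 1.82 without Control 2.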

How the data were processed

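Single-nucleus RNA was counted in 6 libraries. The deposited values are whole-number counts of UMIs per gene and barcode, made by the authors with Cell Ranger 4.0.0 (Control, Stress) and 5.0.1 (Dexamethasone) per the file headers, while the submitters' processing notes name Cell Ranger 5 and mm10; version and group therefore cannot be told apart for Dexamethasone, and whether introns or strand were counted is not given in the sources used here. The other deposited values are gene names and barcodes.

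Barcodes passed with 300 or more genes and a mitochondrial share of UMIs up to 5% (3461 of 11040), and scrublet removed 31 doublets (0.896%). With scanpy 1.11.5, 2000 variable genes without Kcn, sex-linked, glucocorticoid target and immediate early genes gave 30 components, 15 neighbours and Leiden clusters at resolution 1.0, named from marker lists (mean log2 fold over other nuclei, thresholds 0.5 for neurons and glia and 1.5 otherwise, set after seeing the clusters). UMIs were summed per class and library, filtered by filterByExpr, scaled by TMM and tested with edgeR 4.0.16 (quasi-likelihood) over all genes, checked on simulated data; Dexamethasone was fitted with all 6 libraries. Printed CPM are plain shares of all UMIs of a class. All 99 IDs were found in GENCODE M21. A few genes and a sequence are not reported here.

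The members and lists were chosen with earlier results of these data known. Named were up to 6 genes per class and 4 per neuron cluster of largest ratio (CPM with 10 added) to the next, every Kcn gene that passed or, where fewer than 5 passed, those of smallest p, and a fixed set. Alternatives were DESeq2 1.42.0, no filter on low counts, stricter (500 genes, 2%) and no mitochondrial filters, resolution 0.6, Kcn genes kept in clustering, doublets kept, each library left out, the replicate number as a block, and a floor of 100 UMIs; single clusters were added after seeing the data.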

Additional observations from a re-analysis of the deposited data

How the results depend on the processing

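Among the recomputed fold changes of named genes, 502 kept direction and side of the threshold, which includes genes that passed in neither fit. Another 20 passed only in the alternative, 21 passed only as reported, and 4 turned sign. Of the recomputed class ratios, 221 moved by less than 1 SD, 7 moved by 1 SD or more, and 3 turned sign. The single Kcn call in Stress glia-like nuclei became 0 with DESeq2, the replicate block, the stricter filter of nuclei, and clusters 9, 10 or 12 alone, and ranged from 0 to 1 with libraries left out. It was 1 with no mitochondrial filter too, but the gene was then Kcnk5 (adjusted p = 0.00637) in place of Kcnd3 (0.133). Calls appeared elsewhere. In Dexamethasone glia-like nuclei there was 1 with the replicate block (Kcnd3, adjusted p = 0.0431), 1 with no mitochondrial filter (Kcnk10, 0.0281), and 0 to 1 with libraries left out. Without the filter on low counts there was 1 in Stress neuron-like, 3 in Dexamethasone neuron-like, 2 in Stress epithelium-like and 1 in Dexamethasone smooth muscle-like nuclei. In Stress epithelium-like nuclei DESeq2 gave 1 and the block 2 (Kcnb2 and Kcnmb2), and libraries left out 0 to 1. Smooth muscle-like nuclei had 0 to 1 with libraries left out in both comparisons, and in Dexamethasone 1 with the block (Kcnq5) and 2 (Kcnq5 and Kcnb2) in cluster 6 alone. Genes highest in epithelium-like nuclei numbered 1 with no mitochondrial filter, and genes highest in 1 neuron cluster in at least 5 libraries 28 with that setting and 29 at resolution 0.6, against 16. The counts highest in neuron-like, glia-like and smooth muscle-like nuclei stayed within 18 to 26, 5 to 7 and 4 to 7. Signs turned for Kcnb2 in Stress epithelium-like nuclei without clusters 1 and 5 (0.51), for Kcnj3 (0.40) and Kcna6 (-0.38) in Dexamethasone neuron-like nuclei with the stricter filter, and for Kcnma1 in Dexamethasone epithelium-like nuclei with no mitochondrial filter (-0.81). The log2 ratio to the next class turned for Kcnk1 (-0.0173) and Kcnj3 (-0.18) with no mitochondrial filter and for Kcnk5 (-0.0322) with the stricter filter. With no mitochondrial filter a cluster of 80 nuclei led by Klhl1, Kcnh7 and Slc17a6, with 0 smooth muscle markers among its 10 leading genes, was counted as smooth muscle-like, the class Kcnj3 was compared with. The cause was not tested.

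Over all genes the calls ranged widely with the setting, from 6 to 297 in Stress and 23 to 689 in Dexamethasone glia-like nuclei (133 and 467 as reported), 0 to 145 and 0 to 213 in neuron-like, 0 to 41 and 11 to 121 in smooth muscle-like and 0 to 85 and 0 to 29 in epithelium-like nuclei, and 1 to 63 for the difference between classes. The replicate numbers pair no samples by the labels, so the block results above rest on a shared number only. The deviations of number 1 and number 2 libraries correlated across genes at -0.161 and -0.023 in glia-like nuclei. In neuron-like nuclei the values were 0.019 and 0.078, in smooth muscle-like 0.057 and 0.111, and in epithelium-like 0.189 and -0.201. With 2 Control libraries, the deviations of 1 mirror those of the other, so the 2 values of a class are not separate checks. These correlations can neither show nor exclude a pairing. With 2 Control libraries and 1 Dexamethasone library, depth and replicate number limit the tests, and genes with few UMIs per class were not tested.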

Other observations

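Lymphatic endothelium-like nuclei, a class outside the nervous system, held the small-conductance calcium-activated channel Kcnn3 at 497 and 674 CPM (Control), 404, 338 and 492 (Stress) and 635 (Dexamethasone). The next class, fibroblast-like nuclei, averaged 249.8 CPM, and the libraries of the 2 classes overlapped. Fibroblast-like nuclei came second to neuron-like nuclei in Kcnt2, a sodium-activated channel, at 655 CPM, and had the highest mean of the background channel Kcnk2.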
